A study of Bos taurus with 6 samples.

Results

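Among the 512 miRNAs listed for extracellular vesicles (EVs) of bovine granulosa cells, 9 are often used to normalize miRNA measurements. They were chosen by name, with earlier results of these data known but by no measured value, and are bta-miR-361, bta-miR-103, bta-miR-107, bta-miR-191, bta-miR-423-3p, bta-miR-423-5p, bta-miR-425-3p, bta-miR-425-5p and bta-miR-186. All 9 were listed and had a read in every one of the 6 libraries. The granulosa cells came from small follicles of slaughterhouse ovaries and were cultured for 24 h at 37 °C in medium with 10% exosome-depleted serum. They were then kept for another 24 h at 37 °C (control-EVs, 3 libraries) or at 42 °C, which is heat stress (HS-EVs, 3 libraries). EVs were taken from the spent medium with a precipitation reagent, so serum RNA left in the medium can be part of either group. No source used here names the animals behind each library or says that equal replicate numbers mark a shared culture, so the p-values below measure the spread between these libraries. The study used bta-miR-361 as the reference in its droplet digital PCR, and described it as its most stable miRNA with and without heat stress.

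A reference miRNA stands in for the amount of RNA that entered a measurement, and a target is read as its ratio to the reference. It should therefore vary little between samples and should not shift between the groups compared. In EVs the choice is harder than in cells, because the small RNAs that serve as references in cells need not be loaded into vesicles at a steady level. The miRNAs considered here arise from a few loci. In the bovine RefSeq annotation (ARS-UCD2.0, used for names and neighbours only), MIR361 lies within CHM, which encodes a Rab escort protein, MIR423 within NSRP1, a splicing regulator, and MIR186 within ZRANB2, another splicing factor. MIR103-1 and MIR103-2 lie within PANK3 and PANK2, and MIR107 within PANK1, all genes of pantothenate kinases that start coenzyme A synthesis. The mature products of MIR103-1 and MIR103-2 are listed as 1 miRNA. MIR191 and MIR425 are neighbours within 5 kb.

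The libraries differed widely in depth and in the share of a single miRNA. The read totals recovered from the deposited values were 274434 to 2360980, and bta-miR-1246 took 59.9% to 98.6% of them. These totals are above the numbers of miRNA-mapped reads listed in the study's supplement in every library, so they need not be counts of collapsed molecules, and the counting errors given below may be too small. HS-EVs replicate 1 stood apart, with the most reads in all, the largest share of bta-miR-1246 and the fewest reads on other miRNAs (34141, against 73569 to 235634 in the other 5 libraries). Its normalization factor was 0.103, against 1.09 to 2.44 in the others, and 1 read was worth 4.11 normalized counts there against 0.697 to 1.98. Among the 512 miRNAs, 130 had 10 or more reads in every library. The candidates included 7 of these, while bta-miR-107 (9 reads) and bta-miR-425-3p (4 reads) fell below that level in HS-EVs replicate 1.

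Values below are normalized read counts, that is, reads scaled to a library size adjusted by TMM (trimmed mean of M-values). They are given for replicates 1, 2 and 3 in that order. The order of the levels is an order of captured reads, which need not be that of molecules. bta-miR-423-5p, the 5p arm of its hairpin and a miRNA studied in plasma in heart failure, was by far the highest of the 9 and ranked 6 among the 512. Its normalized counts were 10165, 12110 and 6793 in control-EVs and 11640, 5195 and 5190 in HS-EVs. The highest HS-EV library lay between the upper 2 control libraries, and the other 2 lay below every control library. It took 7.23%, 7.37% and 4.67% of the reads other than bta-miR-1246 in control-EVs and 8.30%, 3.83% and 3.67% in HS-EVs. The 95% Wilson interval was 8.01% to 8.60% in HS-EVs replicate 1 and 3.55% to 3.80% in HS-EVs replicate 3, and such intervals cover counting error only. bta-miR-423-3p, the other arm, had 239, 266 and 200 in control-EVs and 160, 159 and 142 in HS-EVs, so that every HS-EV library lay below every control library.

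bta-miR-361, which is known to target the growth factor VEGFA, was second in level. It had 652, 984 and 662 normalized counts in control-EVs and 481, 716 and 492 in HS-EVs. HS-EVs replicates 1 and 3 lay below the controls and replicate 2 lay within their range. As a share of all reads it ran from 0.00496% in HS-EVs replicate 1 to 0.240% in control-EVs replicate 2.

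bta-miR-191 and bta-miR-425 come from the same cluster, and bta-miR-191 has long been used as a reference in serum and tissue. It had 422, 340 and 310 normalized counts in control-EVs and 296, 454 and 616 in HS-EVs. HS-EVs replicate 1 lay below the controls and the other 2 lay above them. bta-miR-425-5p, the more abundant arm of its hairpin, had 116, 78.1 and 83.0 in control-EVs and 107, 100.1 and 92.9 in HS-EVs, all within the range of the controls. bta-miR-425-3p, its partner arm, was the lowest, with 11.0, 19.5 and 9.88 in control-EVs and 16.4, 13.2 and 8.15 in HS-EVs. These values rest on 4 to 28 reads. The level that 3 reads would give was 12.3 normalized counts in HS-EVs replicate 1 and 2.09 to 5.93 in the other libraries.

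bta-miR-103 and bta-miR-107 are paralogs that repress DICER1 and act in lipid and insulin metabolism. bta-miR-103 had 376, 167 and 186 normalized counts in control-EVs and 234, 475 and 507 in HS-EVs. HS-EVs replicate 1 lay within the control range and the other 2 lay above it. bta-miR-107 had 47.7, 69.7 and 49.4 in control-EVs and 37.0, 111 and 106 in HS-EVs, again with HS-EVs replicates 2 and 3 above every control library, and with HS-EVs replicate 1 the lowest of all. The mature sequences of these paralogs are nearly the same, so reads of one could have been counted for the other. bta-miR-186 had 182, 217 and 253 in control-EVs and 177, 293 and 254 in HS-EVs, and the groups overlapped.

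Ranked by mean level, the order was bta-miR-423-5p, bta-miR-361, bta-miR-191, bta-miR-103, bta-miR-186, bta-miR-423-3p, bta-miR-425-5p, bta-miR-107 and bta-miR-425-3p. Of the 8 steps in that order, 3 separated miRNAs whose ranges over the 6 libraries did not overlap, namely those below bta-miR-423-5p, below bta-miR-423-3p and below bta-miR-107. The other 5 steps joined neighbours with overlapping ranges. bta-miR-103 was above bta-miR-186, bta-miR-186 above bta-miR-423-3p, and bta-miR-425-5p above bta-miR-107, in 4 of 6 libraries each.

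**Figure D1:**
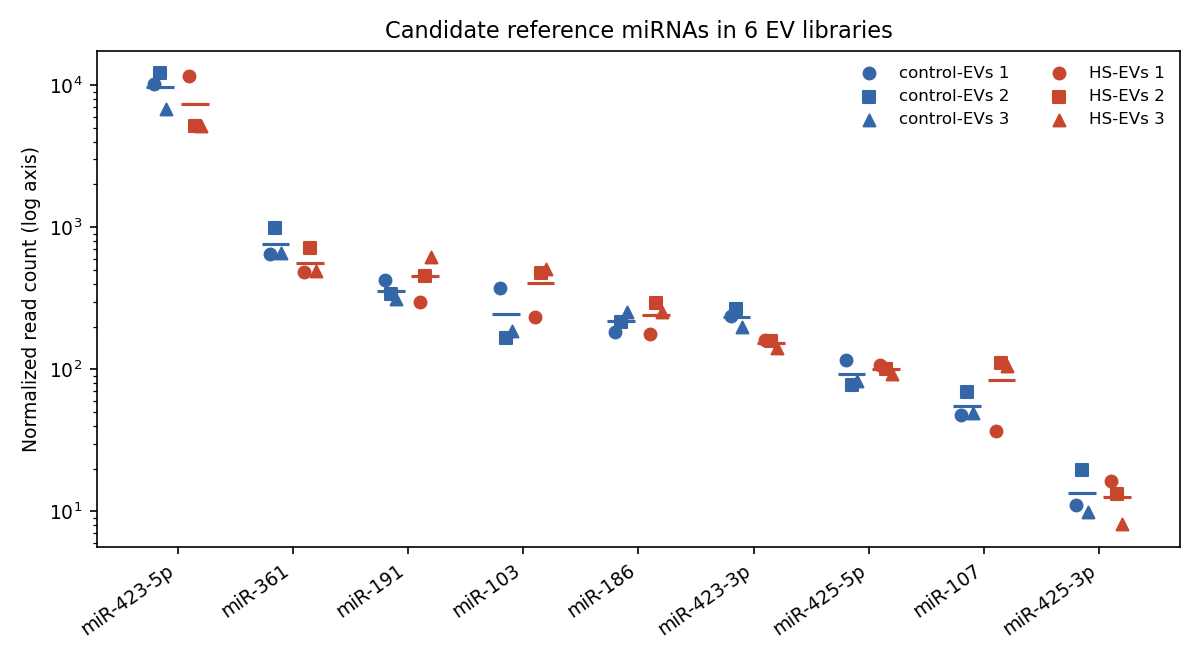
Normalized read counts (log axis) of the 9 candidate reference miRNAs in each of the 3 control-EV and 3 HS-EV libraries, with a bar at each group's mean. The HS-EV points of bta-miR-423-3p (142 to 160) all lie below its control points (200 to 266), while the groups of the other 8 overlap.

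The first question was whether any candidate shifted between HS-EVs and control-EVs. None of the 9 was called by limma at the study's threshold (adjusted p at most 0.3, log2 fold change at least 1 in either direction), and none had an unadjusted p of 0.05 or less. Over all 512 miRNAs the called share was also 0%, with 4.88% at that unadjusted p. In the other tools run over all miRNAs, edgeR's quasi-likelihood test on the reads called 3, none of them a candidate, and DESeq2 called 0. DESeq2 gave no p for bta-miR-2904, one of edgeR's calls, or for bta-miR-1246. The candidates' log2 fold changes ran from -0.60 to 0.75, with 5 higher and 4 lower in HS-EVs and a median of 0.13, beside a median of 0.01 over all 512.

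The highest log2 fold change of the 9 was that of bta-miR-103, which went from 243 ± 116 (SD, n = 3) to 405 ± 149 normalized counts. Its log2 fold change of 0.75 (SE 0.53, limma adjusted p = 0.873) had a 95% interval from -0.42 to 1.93. With a mean-variance trend in limma the interval narrowed to 0.06 to 1.44 with an unadjusted p of 0.0323, while the limma adjusted p was 0.791. In that fit as well, 4.88% of all miRNAs had an unadjusted p of 0.05 or less, and bta-miR-103 was the only candidate with one. The paralog bta-miR-107 went from 55.6 ± 12.3 to 84.7 ± 41.4, a log2 fold change of 0.46 (interval -0.74 to 1.66). bta-miR-191 went from 358 ± 57.9 to 455 ± 160, a log2 fold change of 0.30.

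On the log2 scale over the 6 libraries the lowest value was that of bta-miR-423-3p, which went from 235 ± 33.2 to 154 ± 10.4 normalized counts. The log2 fold change of bta-miR-423-3p was -0.60 (SE 0.42, interval -1.54 to 0.34, limma adjusted p = 0.873). It was the 1 candidate whose groups did not overlap, and over all 512 miRNAs 2.73% did not overlap with HS-EVs lower and 3.71% with HS-EVs higher. bta-miR-423-5p went from 9690 ± 2690 to 7342 ± 3723, a log2 fold change of -0.47 (SE 0.51). bta-miR-361 went from 766 ± 189 to 563 ± 133, a log2 fold change of -0.44 (SE 0.45, interval -1.44 to 0.56, limma adjusted p = 0.873).

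The remaining candidates had log2 fold changes close to 0. bta-miR-425-5p went from 92.2 ± 20.4 to 99.9 ± 6.96 (log2 fold change 0.13), bta-miR-186 from 217 ± 35.6 to 241 ± 59.1 (0.13), and bta-miR-425-3p from 13.5 ± 5.27 to 12.6 ± 4.18 (-0.08). With 3 libraries a group the intervals were wide. All 9 limma intervals held 0 and all 9 reached past 1 or -1 on the log2 scale, so a log2 shift of that size lay within the interval of every candidate. With the mean-variance trend, 6 of the 9 still reached that far.

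**Figure D2:**
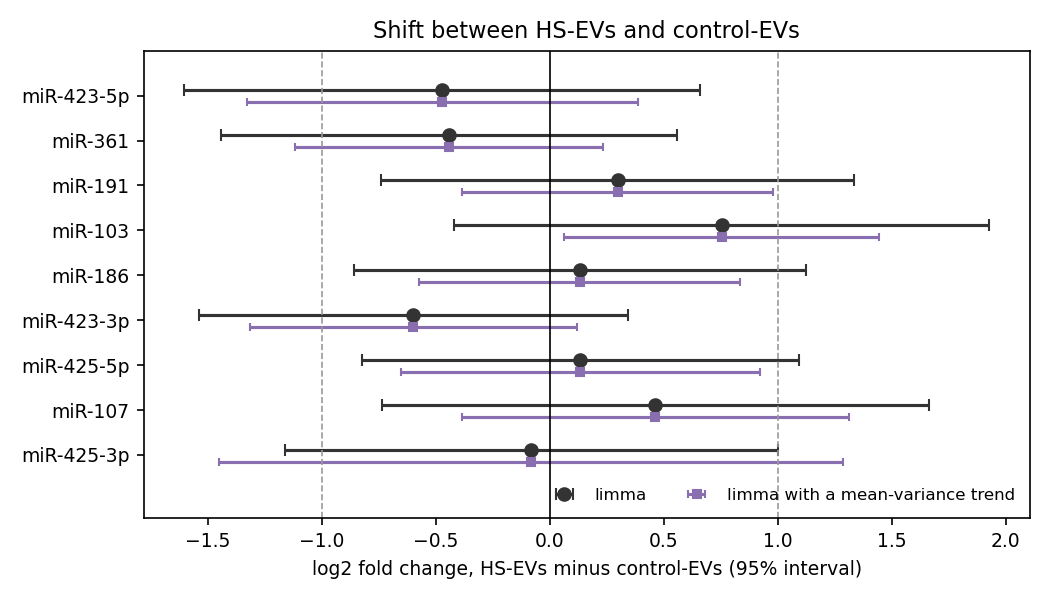
Log2 fold change of each candidate, HS-EVs minus control-EVs, with its 95% interval from limma (circles) and from limma with a mean-variance trend (squares); dashed lines mark -1 and 1. All circles' intervals cross 0, and the trend interval of bta-miR-103 (0.06 to 1.44) does not.

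The fold changes moved with single libraries, HS-EVs replicate 1 among them. In the 5 libraries without it, bta-miR-103, bta-miR-107, bta-miR-191 and bta-miR-186 were higher, and both arms of bta-miR-423 were lower, in every HS-EV library than in any control library. That made 6 of 9 candidates with no overlap, 4 higher and 2 lower, where 11.9% of all miRNAs were higher and 7.42% lower in the same sense. Of all 512 miRNAs, 181 had fewer than 3 reads in every library, so these shares are not those of miRNAs read at like depth. The same count was not made with other libraries left out. The log2 fold change without HS-EVs replicate 1 was 1.109 for bta-miR-103, 0.97 for bta-miR-107, 0.58 for bta-miR-191 and -0.86 for bta-miR-423-5p. It moved less for bta-miR-361 (-0.34), bta-miR-423-3p (-0.63) and bta-miR-425-5p (0.09). No candidate was called without that library either, and the lowest limma adjusted p was that of bta-miR-107, at 0.614. Leaving out other libraries moved values too, bta-miR-103 to 1.12 without control-EVs replicate 1 and others towards 0. bta-miR-191 had 0.048 without HS-EVs replicate 3, bta-miR-107 had 0.19 without HS-EVs replicate 2, bta-miR-423-5p had -0.28 without HS-EVs replicate 2, and bta-miR-361 had -0.25 without control-EVs replicate 2. bta-miR-425-5p had 0.026 without control-EVs replicate 2 and 0.31 without control-EVs replicate 1.

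The second question was how much each candidate varied over the libraries whatever the group. The SD of log2(normalized count + 1) over the 6 libraries was lowest for bta-miR-425-5p, at 0.21, followed by bta-miR-186 (0.29), bta-miR-423-3p (0.36), bta-miR-361 (0.38) and bta-miR-191 (0.40). It was 0.44 for bta-miR-425-3p, 0.57 for bta-miR-423-5p, 0.64 for bta-miR-107 and 0.69 for bta-miR-103. Among the 130 miRNAs with 10 or more reads in every library, where rank 1 varied least, bta-miR-425-5p ranked 13, bta-miR-186 31, bta-miR-423-3p 45, bta-miR-361 50 and bta-miR-191 62. bta-miR-423-5p ranked 96 and bta-miR-103 ranked 108, both in the more variable part. The median SD of the 7 candidates in that set was 0.38, beside 0.43 over the 130.

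The recovered number of reads sets a floor under these values, which would be higher if the reads stood for fewer molecules. Counting error alone, as Poisson error of the recovered reads, would give an SD of 0.20 for bta-miR-425-5p, close to the 0.21 observed, and 0.52 for bta-miR-425-3p, above the 0.44 observed. For neither arm of bta-miR-425 was variation beyond counting error clear at this depth. For bta-miR-423-5p counting error would give only 0.022 against 0.57 observed, and for bta-miR-361 0.083 against 0.38. For bta-miR-103 it would give 0.12 against 0.69. The most abundant candidate was thus among those with the largest spread.

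**Figure D3:**
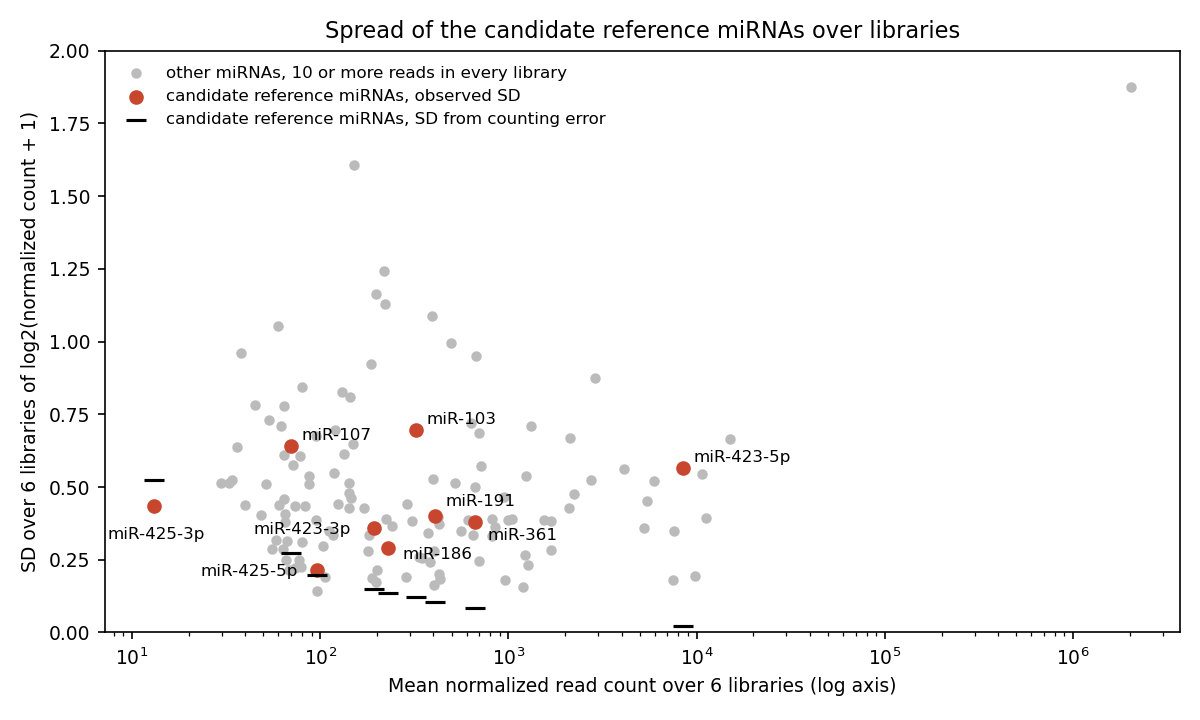
SD over the 6 libraries of log2(normalized count + 1) against mean normalized read count (log axis) for the candidates (red) and for the other miRNAs with 10 or more reads in every library (grey), with black marks at the SD that counting error alone would give each candidate. bta-miR-425-5p (0.21) sits at its mark, while bta-miR-423-5p (0.57) and bta-miR-103 (0.69) sit far above theirs.

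Ratios within a library do not depend on how libraries are scaled to one another, so the candidates were next compared in pairs. Over the 21 pairs of the 7 candidates with 10 or more reads in every library, the SD of the log2 ratio had a median of 0.59 and ran from 0.25 to 1.15. Over all 8385 pairs of the 130 miRNAs the median was 0.63. bta-miR-361 and bta-miR-423-3p moved most closely together. The reads of bta-miR-361 for each read of bta-miR-423-3p were 2.73, 3.70 and 3.32 in control-EVs and 3.00, 4.49 and 3.47 in HS-EVs. bta-miR-103 and bta-miR-423-5p were the pair furthest apart, with an SD of 1.15.

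The mean of a candidate's pairwise SDs is the M value of the geNorm method, in which a low value marks a steady reference. M was 0.51 for bta-miR-425-5p, 0.54 for bta-miR-186, 0.55 for bta-miR-423-3p, 0.56 for bta-miR-361, 0.56 for bta-miR-191, 0.75 for bta-miR-423-5p and 0.78 for bta-miR-103. The first 5 of these values differed by little, and leaving out single libraries changed their order. bta-miR-361 had 0.46 without control-EVs replicate 2 and 0.60 without control-EVs replicate 1. Within HS-EVs alone, M of bta-miR-423-5p was 0.93, against 0.46 within control-EVs. Without HS-EVs replicate 1, M of bta-miR-423-5p was 0.68 and that of bta-miR-103 was 0.85, and the SD over the remaining 5 libraries was 0.22 for bta-miR-425-5p and 0.76 for bta-miR-103. Without control-EVs replicate 2 the SD of bta-miR-107 (0.71) was above that of bta-miR-103 (0.64).

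Among the 36 pairs of all 9 candidates, 3 had ratios that did not overlap between the groups, and over the 8385 pairs of the 130 miRNAs 8.48% did not. The reads of bta-miR-423-3p for each read of bta-miR-425-5p were 2.06, 3.40 and 2.41 in control-EVs and 1.5, 1.59 and 1.53 in HS-EVs. The reads of bta-miR-191 for each read of bta-miR-423-3p were 1.77, 1.28 and 1.55 in control-EVs and 1.85, 2.85 and 4.34 in HS-EVs. The third pair was bta-miR-361 and bta-miR-107, with 13.7, 14.1 and 13.4 reads for each read in control-EVs and 13.0, 6.45 and 4.65 in HS-EVs. Of the 21 pairs of the 7 candidates within the 130 miRNAs, 2 had ratios that did not overlap. The share of such pairs among the candidates was near that over the pairs of the 130 miRNAs. Each of the 7 candidates was also set against the mean log2 value of the other 6. The largest difference, HS-EVs minus control-EVs, was that of bta-miR-103, at 0.91 (exact two-sided permutation test, p = 0.2), with overlapping groups. For bta-miR-423-3p it was -0.67 (exact permutation p = 0.1, the smallest that 3 against 3 libraries allow). For both, the exact permutation p adjusted by Benjamini-Hochberg over the 7 candidates was 0.467.

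**Figure D4:**
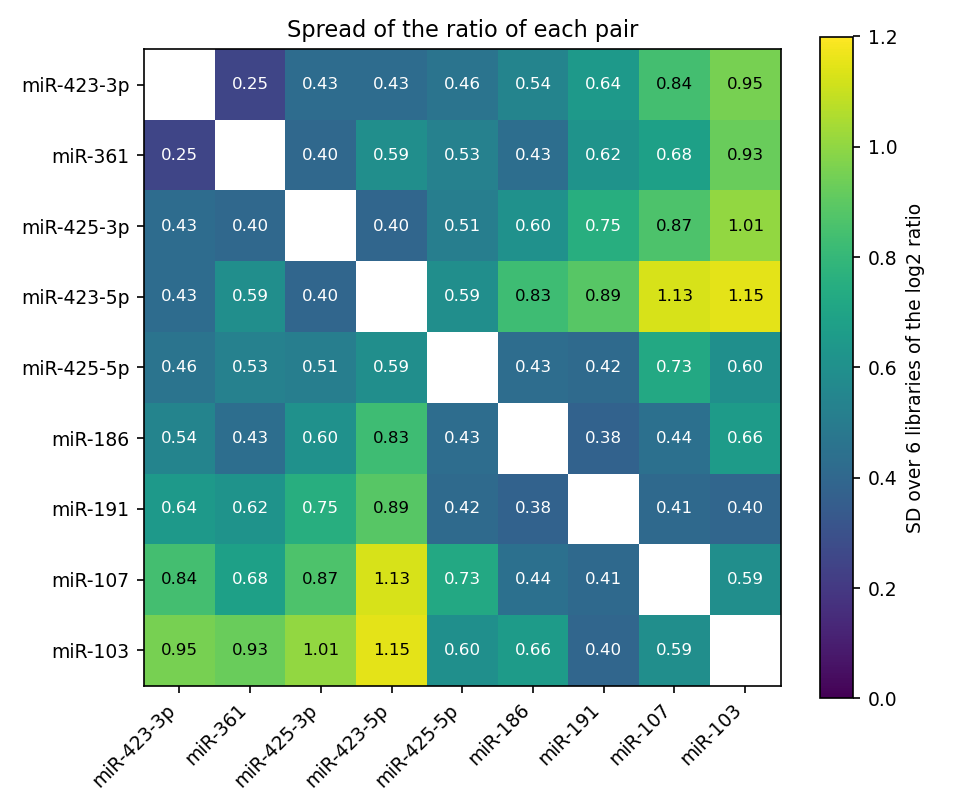
SD over the 6 libraries of the log2 ratio for each of the 36 pairs of the 9 candidates, as numbers and shades. The lowest SD is that of bta-miR-361 with bta-miR-423-3p (0.25) and the highest that of bta-miR-103 with bta-miR-423-5p (1.15).

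Some of the candidates share an origin, and 4 ratios were tested for that reason. The 2 arms of the bta-miR-423 hairpin were very unequal, with 42.6, 45.6 and 34.0 reads of the 5p arm for each read of the 3p arm in control-EVs and 72.6, 32.6 and 36.6 in HS-EVs. The ratio of HS-EVs replicate 1 lay above the 5 others, and the groups overlapped. The 5p arm of bta-miR-425 had 10.5, 4.00 and 8.40 reads for each read of the 3p arm in control-EVs and 6.50, 7.58 and 11.4 in HS-EVs. bta-miR-103 had 7.88, 2.40 and 3.76 reads for each read of bta-miR-107 in control-EVs and 6.33, 4.28 and 4.78 in HS-EVs. The cluster partners bta-miR-191 and bta-miR-425-5p stood at 3.65, 4.36 and 3.74 in control-EVs and 2.77, 4.54 and 6.63 in HS-EVs. In exact two-sided permutation tests the p-values of the 4 ratios ran from 0.6 to 0.9, with Benjamini-Hochberg adjusted values of 0.9 for each. The log2 differences, HS-EVs minus control-EVs, were -0.13 for bta-miR-423-3p to bta-miR-423-5p, -0.22 for bta-miR-425-3p to bta-miR-425-5p, 0.29 for bta-miR-103 to bta-miR-107 and 0.16 for bta-miR-191 to bta-miR-425-5p. Without HS-EVs replicate 1 the difference was 0.23 for bta-miR-423-3p to bta-miR-423-5p, of the opposite sign, and 0.49 for bta-miR-191 to bta-miR-425-5p. With 3 libraries a group these tests could not have given a p below 0.1.

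The mean log2 value of the 7 candidates with 10 or more reads in every library was 8.89, 8.78 and 8.57 in control-EVs and 8.58, 8.82 and 8.75 in HS-EVs. Its SD over the 6 libraries was 0.13, and the groups differed by -0.03. A mean over miRNAs that moved in both directions, in values already centred by TMM, varies less than its members by construction. The miRNA with the steadiest ratio to that mean was bta-miR-140, with an SD of the log2 ratio of 0.075 over the 6 libraries. It had 222, 191 and 174 normalized counts in control-EVs and 168, 217 and 215 in HS-EVs, and ranked 4 of 130 by its SD. These rest on 41 to 274 reads a library. At the like depth of bta-miR-186 (43 to 311 reads), counting error alone would give an SD of 0.14, above the 0.075. Next after bta-miR-140 came bta-miR-450b (0.147), bta-miR-185 (0.148), bta-miR-152 (0.149) and bta-miR-151-3p (0.192). These are ranks in the libraries that gave the mean, and carry no test.

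A second list, of 17 other miRNAs in use as normalizers, gave similar numbers. None was called, 6 had a log2 fold change above 0 and 11 below it, the median was -0.07, and the median SD of the 15 with 10 or more reads in every library was 0.43. Their SDs overlapped those of the candidates. The smallest were those of bta-miR-16a (0.18) and bta-let-7i (0.18), below each of the 9, at mean levels of 988 and 7098 normalized counts in control-EVs. The largest were those of bta-miR-345-5p (1.09), which had at most 3 reads in a library, and bta-miR-26a (0.71), with a log2 fold change of 0.89.

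Scaling to 1 candidate moves every other miRNA by about the opposite of that candidate's own fold change, so the values that follow restate the shifts above as a user of that reference would meet them. When the reads were rescaled to 1 candidate, the median over the 130 miRNAs, a log2 fold change of 0.04 with TMM, became 0.48 for bta-miR-361, 0.51 for bta-miR-423-5p and 0.64 for bta-miR-423-3p. It became -0.72 for bta-miR-103, -0.26 for bta-miR-191, -0.10 for bta-miR-425-5p and -0.09 for bta-miR-186. Scaled to the geometric mean of the 9 candidates it was 0.02. The calls over all 512 miRNAs numbered 0 under each of these scalings except that to bta-miR-423-3p, which gave 12, 11 of them higher in HS-EVs. Of the 12, 7 had fewer than 10 reads in every library.

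For 5 miRNAs that the study singled out in EVs, the size of the fold change moved with the reference. The log2 fold change of bta-miR-1246 was 1.79 with TMM, 2.23 relative to bta-miR-361, 1.03 relative to bta-miR-103 and 1.77 relative to the mean of the 9. That of bta-miR-2904 was 3.63, 3.97, 2.99 and 3.59 in the same order, and that of bta-miR-11987 was 2.0, 2.44, 1.27 and 1.98. bta-miR-374a had 1.66, 2.06, 0.95 and 1.64, and bta-miR-374b had 1.57, 1.96, 0.87 and 1.55. All 5 had higher values in HS-EVs under each of these scalings, and scaling to all reads lowered them to 0.25 for bta-miR-1246, 0.32 for bta-miR-374a, 0.45 for bta-miR-374b, 2.24 for bta-miR-2904 and 0.49 for bta-miR-11987. Under TMM their SEs ran from 0.50 to 1.57, and none was called there by limma. With a mean-variance trend, limma called bta-miR-2904 (adjusted p = 1.46e-11) and bta-miR-11987 (adjusted p = 0.000383). bta-miR-2904 had 53.2, 1.39 and 15.8 normalized counts in control-EVs and 2420, 31.9 and 50.5 in HS-EVs. bta-miR-11987 had 69.8, 25.1 and 33.6 in control-EVs and 612, 66.0 and 99.4 in HS-EVs. For both, the groups overlapped and HS-EVs replicate 1 was far above the other libraries. Without that library and without the trend, the limma adjusted p was 0.784 for each. The 3 calls of edgeR's quasi-likelihood test were these same 2 and bta-miR-374a, and for bta-miR-1246, not called, edgeR gave a log2 fold change of 2.92. The 12 calls after scaling to bta-miR-423-3p included bta-miR-374a and bta-miR-374b. Without HS-EVs replicate 1 the TMM values were 0.43 for bta-miR-1246, 1.97 for bta-miR-374a, 1.85 for bta-miR-374b, 1.67 for bta-miR-2904 and 1.04 for bta-miR-11987. bta-miR-374b rested on 1 to 13 reads a library and bta-miR-374a on 6 to 41. Relative to bta-miR-361, the fold change of each of the 5 was larger than relative to the mean of the 9. The study itself reported all 5 as enriched in HS-EVs, from edgeR. Its droplet digital PCR on EVs tested bta-miR-2904, bta-miR-374a and bta-miR-1246, and only bta-miR-1246 matched its sequencing result. For such follow-up work the study isolated EVs by ultracentrifugation.

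**Figure D5:**
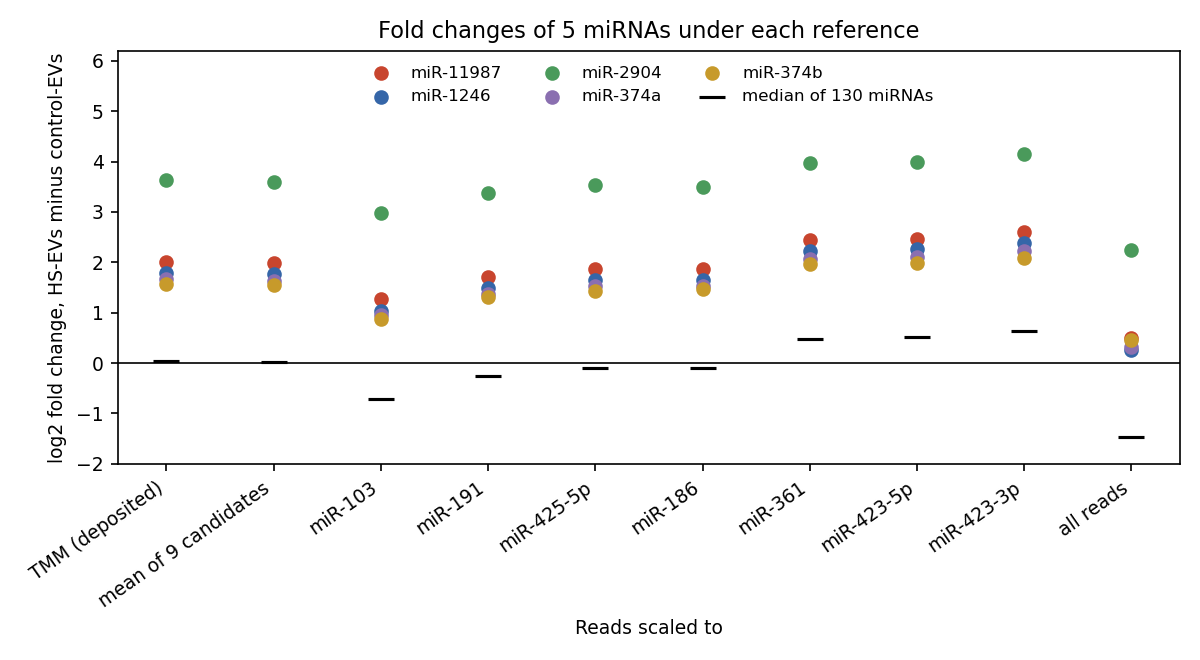
Log2 fold change, HS-EVs minus control-EVs, of the 5 miRNAs the study singled out (coloured points) and the median of the 130 miRNAs with 10 or more reads in every library (black bars), under TMM and after scaling to the mean of the 9 candidates, to single ones or to all reads. Among single candidates the median runs from -0.72 (bta-miR-103) to 0.64 (bta-miR-423-3p), and the points move with it.

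Markers of other sources were read beside these values, since miRNAs such as bta-miR-423-5p and bta-miR-191 also circulate in blood. bta-miR-122, the defining miRNA of liver and a marker of serum here, had 12232, 25400 and 21350 normalized counts in control-EVs and 13633, 9840 and 7524 in HS-EVs. The log2 fold change of bta-miR-122 was -0.91 and was not called. Of the candidates, 4 had the same sign (bta-miR-423-3p, bta-miR-423-5p, bta-miR-361 and bta-miR-425-3p). The other 5 had the opposite sign, among them bta-miR-191 (0.30). The 3 red blood cell markers (bta-miR-451, bta-miR-486 and bta-miR-144) summed to 561 to 1283 in control-EVs and 320 to 822 in HS-EVs, all 3 with a log2 fold change below 0 (-0.19 for bta-miR-451, whose mean counts were 29.3 and 29.9) and none called. The 5 white blood cell markers summed to 8148 to 12662 and 8193 to 15833, most of it bta-miR-155. Among them bta-miR-150 was higher in every HS-EV library than in any control library (log2 fold change 0.91, not called), as were 3.71% of all 512 miRNAs. The groups of the other white blood cell markers overlapped. Their log2 fold changes were 0.18 for bta-miR-155, 0.11 for bta-miR-142-5p, -0.08 for bta-miR-142-3p and -0.27 for bta-miR-223. The 3 striated muscle markers summed to 522 to 969 in control-EVs and to 1578, 227 and 510 in HS-EVs. The 7 granulosa cell markers summed to 8363 to 16573 in control-EVs and 8518 to 15258 in HS-EVs, most of it bta-miR-21-5p. Among them, bta-miR-212 and bta-miR-383 had under 3 reads in every library. Of the 7, 3 had a log2 fold change above 0 and 4 below it, and none was called. The part of these sources in the candidates' values was not tested. In such bulk EV libraries, the number of vesicles and the content of a miRNA in each vesicle cannot be told apart.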

How the data were processed

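Small RNA libraries with unique molecular identifiers were made from 6 EV samples, grouped by the labels. The authors trimmed reads with cutadapt (version 1.11), collapsed identifiers, mapped with Bowtie2 (version 2.2.2) to the bovine genome (UMD3.1) and miRBase, and normalized by TMM in edgeR. They deposited a normalized read count for each miRNA, a signal that is never negative. All deposited values were whole multiples of a library's smallest value (tolerance 0.001), which was taken as 1 read. The totals so recovered exceed the miRNA-mapped reads that the study's supplement lists for each of the 6 libraries, and the reason is not given in the sources used here. Read numbers, floors and counting errors are therefore relative to the recovered reads and may overstate the number of molecules.

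The main test was limma (version 3.58.1, R 4.3.3) on log2(value + 1) over all 512 miRNAs, with Benjamini-Hochberg adjustment and no block or filter. Exact permutation tests were used for ratios, and edgeR (4.0.16) and DESeq2 (1.42.0) on the recovered reads as alternatives. Shares have Wilson intervals (95%), and the floor is 3 reads. No 2 libraries agreed within sampling noise (chi-square per degree of freedom 34.3 or more over 15 pairs).

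The members, the lists and the alternatives were chosen with earlier results of these data known. The text names the 9 candidates, the 5 miRNAs closest to their mean, the 2 most and 2 least variable other normalizers, 5 miRNAs the study singled out, and markers. Alternatives were the pseudocount, a filter, other scalings and tests, a replicate block, and leaving out each library. The block in edgeR and scaling to the mean of the 130 miRNAs were added after the data were seen. Libraries of the cells themselves were not used here.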

Additional observations from a re-analysis of the deposited data

How the results depend on the processing

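None of the 9 candidates was called under any alternative run, and their adjusted p-values ran from 0.491 to 1. Of 162 recomputed fold changes of candidates, 153 kept their direction. Scaling to all reads, of which bta-miR-1246 takes most, turned bta-miR-103 to -0.76, bta-miR-107 to -0.96, bta-miR-191 to -1.22, bta-miR-425-5p to -1.36 and bta-miR-186 to -1.37, moved bta-miR-361 to -1.96, bta-miR-423-3p to -2.10, bta-miR-423-5p to -2.0 and bta-miR-425-3p to -1.4 so that all 9 were below 0, lowered the median of the 130 miRNAs to -1.47 and raised the median SD of the candidates from 0.40 to 1.82. Scaling to reads other than bta-miR-1246 gave 0.019 for bta-miR-425-3p.

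Leaving out 1 library at a time gave log2 fold changes of -0.29 to 0.20 for bta-miR-425-3p (above 0 without control-EVs replicate 2 or HS-EVs replicate 3) and -0.022 to 0.34 for bta-miR-186 (below 0 without HS-EVs replicate 2). The ranges were -0.35 to 0.23 for the log2 ratio of bta-miR-423-3p to bta-miR-423-5p, -0.49 to 0.17 for bta-miR-425-3p to bta-miR-425-5p, -0.10 to 0.75 for bta-miR-103 to bta-miR-107 and -0.14 to 0.49 for bta-miR-191 to bta-miR-425-5p. The median SD ran from 0.36 to 0.44 and the mean M from 0.55 to 0.64.

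Calls over all 512 miRNAs numbered 0 with limma (25 at an unadjusted p of 0.05 or less), 1 with a pseudocount of 0.5, 2 with a mean-variance trend, 3 with edgeR's quasi-likelihood test, 12 after scaling to bta-miR-423-3p, and 0 to 4 without single libraries (4 without control-EVs replicate 2, 3 without HS-EVs replicate 2, 2 without HS-EVs replicate 1). The cause was not tested. DESeq2 called 0 (10 at an unadjusted p of 0.05 or less) and left bta-miR-1246 as well as bta-miR-2904 without a p.

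Same-numbered libraries of the 2 groups had correlations of deviations of 0.141, 0.141 and 0.0787. Differently numbered libraries were not compared, so these values cannot settle whether the numbers mark a pairing. The main test took them as unpaired. With the replicate block, limma called 0 and edgeR called 7, none of them a candidate. The log2 ratios keep their values under the block (-0.13, -0.22, 0.29 and 0.16 in the order above), where 3 pairs allow no p below 0.25. Depth limits both arms of bta-miR-425, whose spread is near counting error.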
